A study of Mus musculus with 5 samples.

Results

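The genes described here encode the enzymes and subunits that move nucleosomes, write or erase marks on histones, or bind those marks. They were chosen by symbol: every gene whose name begins with Smarc, Cbx, Hdac, Kdm, Kmt, Dnmt or Ezh, or with Chd and a digit, together with Suz12, Eed, Rbbp4, Rbbp7, Bmi1 and Ring1. The array held 46 of them, among 8251 genes with a name, on 62 probe sets. Where several probe sets read a gene, the one brightest on average across the 5 arrays stood for it. Of the 46 genes, 43 passed a filter on low signal, as did 5610 named genes in all. Cbx7, Kdm5a and Kdm5d did not pass it. Both probe sets for Cbx3, an HP1 protein, were annotated to a pseudogene as well and were not used.

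The RNA came from CD8 T cells of OT-1 mice, C57BL/6 animals of 6 to 8 weeks with a transgenic T cell receptor, taken from lymph nodes as CD44lo cells. In all groups the cells were cultured on microspheres that carried a peptide bound to H-2Kb together with B7-1, the ligand of CD28, and all cultures received human IL-2. The 5 arrays comprised 2 of cells held for 48 h without IL-21 (Ag-B7), 2 of cells given murine IL-21 for 48 h (Ag-B7+IL21) and 1 of cells given it for 72 h. IL-21 is a T cell cytokine that acts through STAT3. The labels call every sample a biological replicate but do not say whether mice or cultures were separate, so p-values here reflect the spread among these arrays alone, which may be technical. Cells at 72 h without IL-21 were not analysed here, so a change from 48 to 72 h cannot be told apart from longer exposure to IL-21.

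Resting T cells carry compact chromatin, and activation through the antigen receptor opens it so that effector genes can be read. SWI/SNF, ISWI and CHD complexes slide or evict nucleosomes with energy from ATP. Polycomb complexes silence genes: in PRC2 the methyltransferase EZH2, or its relative EZH1, acts with EED and SUZ12, and in PRC1 the ubiquitin ligase subunits RING1 and BMI1 act with a CBX protein that binds the methyl mark. Histone deacetylases close chromatin, demethylases of the KDM group and methyltransferases of the KMT group change lysine methylation, and DNMT enzymes methylate DNA. EZH2 and DNMT3A are known in CD8 T cells for silencing memory genes during effector differentiation.

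Signals are deposited MAS5 intensities after quantile normalisation, which gives every array the same distribution, so each difference is relative to the bulk of probe sets. Before that step the trimmed mean signal lay between 65.28 and 75.36 on the arrays without IL-21, at 105.1 and 105.6 on the 48 h arrays with it and at 65.86 on the 72 h array. The number of arrays limits the precision. CD8 T cell markers all passed the filter where present: 8 of 9 were on the array, and their summed normalised signal lay between 5674 and 5788 at 48 h without IL-21, between 5814 and 6378 with it, and at 8462 at 72 h. Markers of B cells summed to between 91.0 and 120 on all arrays and those of myeloid cells to between 220 and 377. Of the 9 myeloid markers 6 passed the filter, with Cd74 between 41.99 and 155.7 and H2-Ab1 between 58.05 and 139.7. The dimmest, Lyz2, lay between 1.81 and 2.99. All normalised signals printed here, and the sums of them, still contain an offset of 1.53 added before log2. It weighs most in the dimmest values. The summed signals of CD4 T cell markers reached at most 24.6 at 48 h and 42.3 at 72 h, that of the NK marker 5.14 and 10.2, and that of the erythroid marker 25.7 and 6.33. In whole cultures, fewer cells of a kind and less RNA in each cell cannot be told apart.

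Cells with and without IL-21 were compared first, at 48 h. The chromatin genes showed little difference as a set: 22 of the 43 were higher with IL-21 and 21 lower, and the median log2 difference was 0.01, against -0.01 over all 7453 probe sets tested. Smarcc1, the BAF155 scaffold subunit of SWI/SNF, was the member that stood furthest from its spread, 1.85-fold higher with IL-21 and without overlap. Dnmt3a, a de novo DNA methyltransferase, was 1.61-fold higher and Kdm5b, a demethylase of the active promoter mark, 1.72-fold lower, both from dim signals. No member passed the test, with limma adjusted p between 0.612 and 0.998 over all probe sets. Among all probe sets 0 passed (0.00%), the smallest adjusted p being 0.465, and 327 had an unadjusted p under 0.05.

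By size, 2 members were at least 1.5-fold higher with IL-21 without overlap between the arrays, Smarcc1 and Dnmt3a, and 1 was as much lower, Kdm5b. That is 4.65% and 2.33% of the members, beside 3.14% and 2.28% of all probe sets. An unadjusted p under 0.05 was reached by 1 member on either side, where 2.55% of all probe sets reached it on the higher side and 1.84% on the lower. By the brightest probe set of each gene, these shares were near the background. The next sets of Cbx5 (2.20-fold) and Suz12 (1.53-fold), not counted here, were also higher without overlap. Both had an unadjusted limma p under 0.05. Of the members' dimmer sets past the filter, none was at least 1.5-fold lower. Counting differences of any size, 12 of the 43 members lay without overlap, and the share over all probe sets was not counted. Kdm6a, Kmt5c, Bmi1, Rbbp4, Cbx2 and Kmt2a were among them. With 2 arrays against 2, groups that do not differ separate at a rate of 0.333. Lack of overlap alone therefore says little, and an exact permutation test cannot give a two-sided p below 0.333.

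Smarcc1 had normalised signals of 161.0 and 142.7 without IL-21, 279.4 and 280.4 with it, and 180.1 at 72 h. Both IL-21 arrays lay clearly above both others at 48 h, and the 72 h array lay between. The log2 difference with IL-21 was 0.88 (SE 0.15, n = 2 against 2, limma adjusted p = 0.612), and it lay between 0.80 and 0.97 in all alternatives run. The other SWI/SNF subunits differed less. Smarca4, the BRG1 ATPase, had 397.3 and 382.2 without IL-21 and 409.1 and 455.7 with it (0.15, SE 0.14), again without overlap. Smarcb1, a core subunit, had 194.1 and 247.8 against 236.6 and 177.8 (-0.10, SE 0.21), and the arrays overlapped. Smarcd1, Smarcd2, Smarce1 and the BRM ATPase Smarca2 overlapped too, with log2 differences between -0.16 and 0.19. Of the other Smarcd2 probe sets past the filter, one was higher with IL-21 without overlap (61.92 and 56.50 against 103.9 and 65.25, a difference of 0.48, SE 0.27) and one overlapped (-0.03, SE 0.20).

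Cbx5, the HP1 alpha protein of heterochromatin, gave different answers on its 2 probe sets. The brighter set read 123.1 and 135.1 without IL-21, 133.2 and 179.4 with it and 124.2 at 72 h, a log2 difference of 0.26 at 48 h (SE 0.21). The arrays of the groups overlapped there. The dimmer set read 54.7 and 55.0 without IL-21, 113 and 129 with it and 43.2 at 72 h. Its difference at 48 h was 1.14 (SE 0.19, limma adjusted p = 0.585), and the set was chosen for mention after its values were seen. Suz12 split in a like way: 203.6 and 232.2 without IL-21 against 265.6 and 226.5 with it on its brightest set (0.17, SE 0.17), 73.4 and 83.3 against 126 and 113 on the next (0.61, SE 0.18), and -0.19 (SE 0.41) on a dim one. Probe sets of one gene can sit on different transcript ends, and which of them follows the gene was not tested.

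Dnmt3a had 29.99 and 18.93 without IL-21 and 34.06 and 43.04 with it (log2 difference 0.68, SE 0.33, limma adjusted p = 0.967), and the groups did not overlap. Its difference was 0.35 without the second IL-21-free array and 1.02 without the first. Dnmt1, which copies methylation after replication, had 533.6 and 582.6 against 520.8 and 631.0 (0.04, SE 0.15), an overlap. Kdm5b had 47.74 and 44.75 without IL-21 and 21.44 and 33.65 with it (-0.78, SE 0.30, limma adjusted p = 0.967). The difference of Kdm5b was -0.46 without the first IL-21 array and -1.11 without the second. Kdm1a, the LSD1 demethylase, differed by -0.33 (SE 0.22) and Kdm3b by 0.34 (SE 0.21), both without overlap. The other demethylases and Kmt genes past the filter, Kmt2a aside, differed by -0.15 to 0.08.

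Kmt2a, the MLL1 methyltransferase, had 62.48 and 44.16 without IL-21 and 78.25 and 70.41 with it (0.50, SE 0.24), while its other probe set had 58.3 and 44.9 against 36.7 and 46.0 (-0.32, SE 0.26). The 2 sets thus had opposite signs. Chd1l, a remodeller of DNA repair, had the largest difference (0.99, SE 0.70), but it rested on 1 array: its signals without IL-21 were 10.28 and 47.74, with IL-21 36.23 and 53.83, and the difference was -0.11 without the first IL-21-free array. Chd1, which travels with elongating polymerase, had 243.6 and 165.2 against 166.6 and 177.9 (-0.22, SE 0.22). Chd4, the ATPase of NuRD, had 1407 and 1537 against 1573 and 1526 (0.08, SE 0.10).

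By their brightest probe sets, Polycomb and deacetylase genes lay close together in both groups at 48 h. The 8 measured Polycomb genes differed by -0.27 to 0.20 and the 6 deacetylases by -0.17 to 0.02 on the log2 scale. Other Polycomb sets ranged more widely. Those of Suz12 differed by 0.61 (SE 0.18, without overlap) and -0.19 (SE 0.41), and that of Cbx6 by 0.31 (SE 0.31). Eed had 249.0 and 249.6 without IL-21 and 245.0 and 250.6 with it, and Bmi1 213.4 and 224.3 against 225.1 and 226.7. Cbx2, a PRC1 chromodomain protein, was lower with IL-21 (-0.27, SE 0.24) on its brighter set and higher (0.44, SE 0.40) on the other. Rbbp4, a histone-binding subunit shared by PRC2, NuRD and Sin3, had 404.0 and 341.0 against 324.3 and 326.8 (-0.19, SE 0.15), and its relative Rbbp7 differed by 0.08 (SE 0.12). Over all members the other probe sets past the filter numbered 10, for 8 genes, of which 5 had the sign of the brighter set at 48 h and 5 the opposite.

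**Figure D1:**
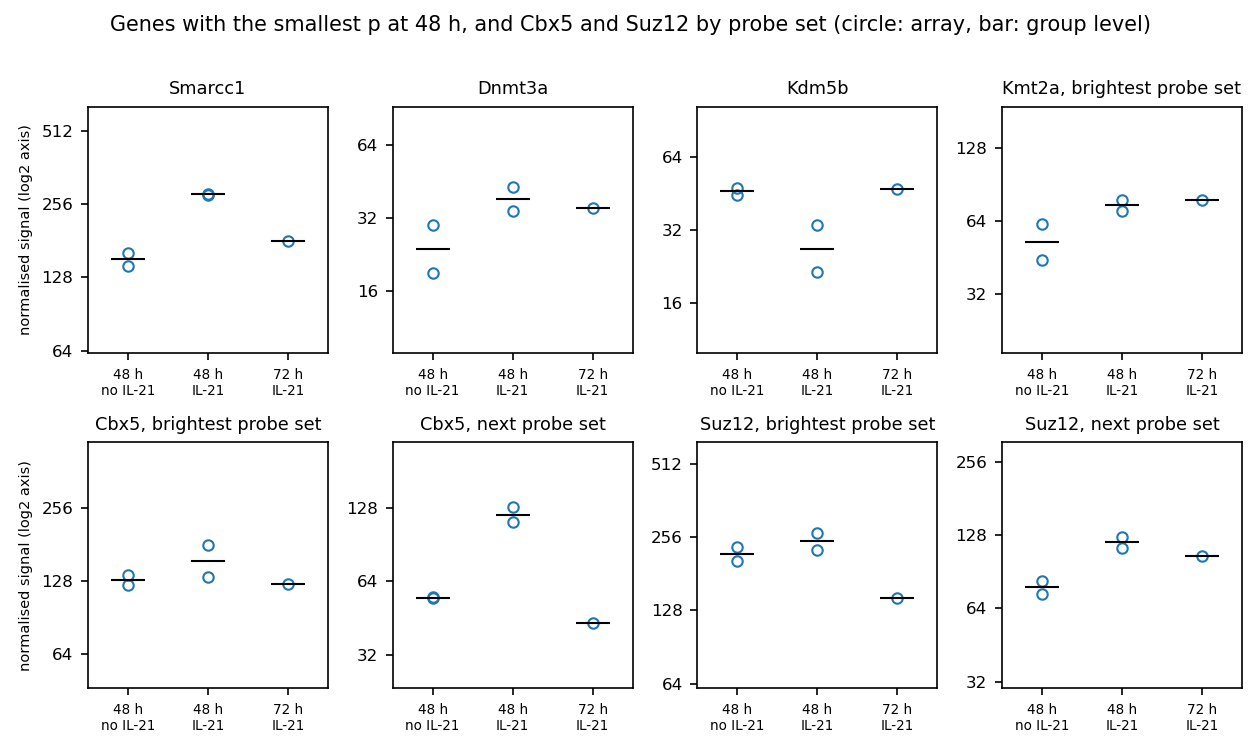
Normalised signal (log2 axis) on each array for the genes with the smallest p at 48 h and for the Cbx5 and Suz12 probe sets, with circles for the 2 arrays at 48 h without IL-21, the 2 with it and the 1 at 72 h, and bars for group levels. Smarcc1 rests at 279.4 and 280.4 with IL-21 and at 161.0 and 142.7 without, and the next Cbx5 probe set separates the groups while the brightest does not.

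The second comparison asked how cells cultured with IL-21 differed between 48 and 72 h. On the 72 h array Ezh1, Hdac5, Kdm3a and Kmt2e rose, by 1.86-fold to 3.70-fold, and Bmi1, Hdac3 and Eed fell, by 1.81-fold to 2.83-fold. These 7 of 43 members passed the limma test (adjusted p between 0.0180 and 0.0420), 4 higher and 3 lower, and 36 did not pass. Among the Polycomb genes 3 of 8 passed, among the deacetylases 2 of 6 and among the demethylases 1 of 5. Among the genes with a Kmt name, a grouping by symbol and not by enzyme activity, 1 of 4 passed. No SWI/SNF, ISWI, CHD, HP1, RbAp or DNMT member passed by its brightest probe set.

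The 7 members called are 16.3% of those measured, beside 11.2% of all probe sets and 11.9% of genes represented in the same way. Of members 9.30% were called higher, beside 4.04% of probe sets, and 6.98% lower, beside 7.12%. The median log2 difference of the members was 0.01, with 22 higher and 21 lower, and that of all probe sets -0.01. The size of the differences was near that of other genes too, with a median absolute log2 difference of 0.40 for the members and 0.41 for all probe sets. On the 72 h array 14 members lay above all 4 arrays at 48 h (30.4% of all probe sets did) and 14 below all 4 (33.8% of all probe sets did). Of all calls at 72 h, 36.2% were higher, and this split moved with the scaling. It was 18.0% with arrays centred on their medians (members 1 higher and 3 lower). With arrays centred on hybridisation controls it was 49.7% (members 3 and 2), and in unscaled arrays 4.71% (members 1 and 17). Tests under these scalings keep the shift of the median of all probe sets, which was -0.17, 0.12 and -0.58 in that order.

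The comparison sets 1 array against 2 and the fit lends the lone array the spread of the others. Both comparisons share the 48 h arrays with IL-21. Leaving out either of these 2 arrays left 0 members called, with adjusted p between 0.0595 and 0.131 for the 7 and every sign kept. In both of these fits 0 of the 7453 probe sets were called as well, so the loss is not particular to the members. Without either array of the group without IL-21, 4 of the 7 stayed called, Bmi1, Ezh1, Hdac3 and Hdac5, while the calls among all probe sets went from 301 higher and 531 lower to 165 and 285 without the first of these arrays and 163 and 290 without the second.

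**Figure D2:**
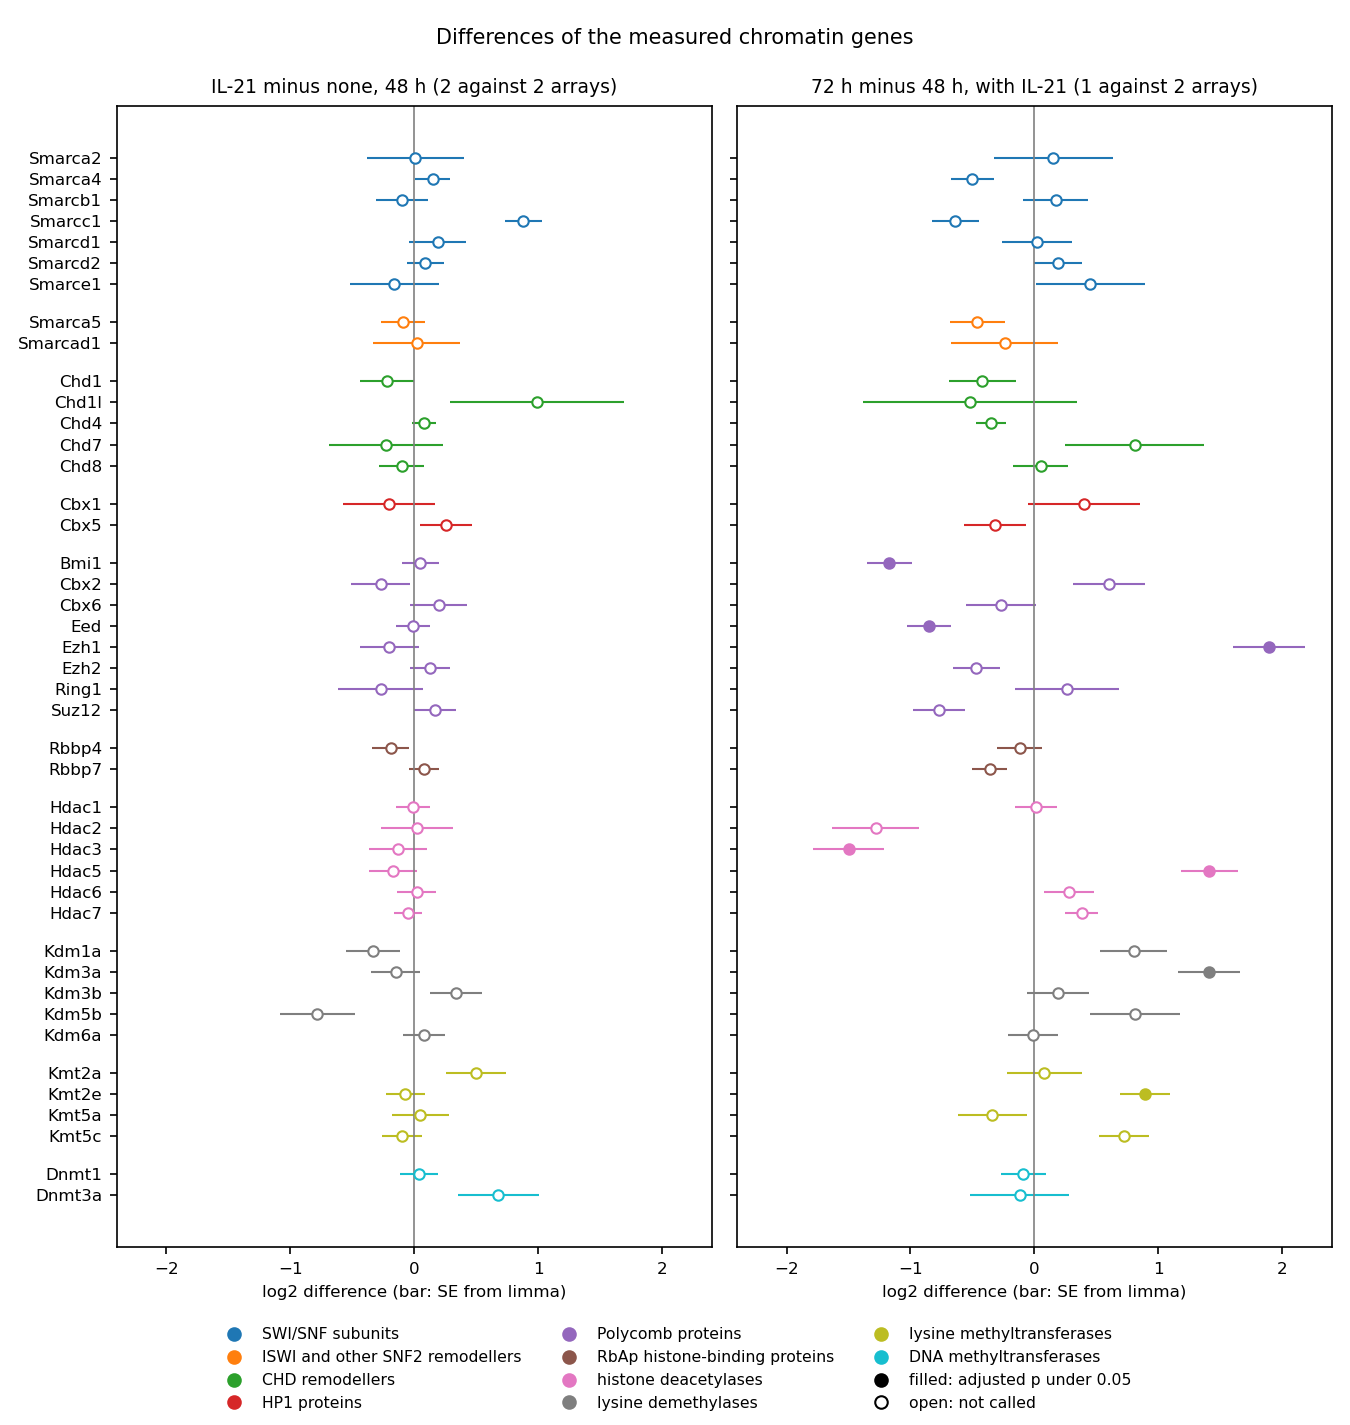
Log2 difference of each of the 43 measured chromatin genes, grouped by family, with IL-21 against none at 48 h on the left and at 72 h against 48 h with IL-21 on the right. Bars are standard errors from limma and filled circles have an adjusted p under 0.05, of which there are 0 on the left and 7 on the right, where the spread runs from -1.50 for Hdac3 to 1.89 for Ezh1.

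The Polycomb genes held the widest split at 72 h. Ezh1, the methyltransferase found mainly in cells that do not divide, had signals of 32.05 and 38.98 without IL-21 and 28.98 and 32.53 with it, and 113.7 at 72 h. The 72 h array was far above all others, and the log2 difference was 1.89 (SE 0.29, n = 1 against 2, limma adjusted p = 0.0180). The signals at 48 h were dim, and the difference lay between 1.81 and 1.97 with single 48 h arrays left out. The lone 72 h array cannot be left out, so that range does not show how far the difference rests on it. Ezh2, its relative in dividing cells, had 512.0, 496.1, 486.8 and 623.8 on the 4 arrays at 48 h and 398.3 at 72 h. It was lowest on the 72 h array without passing the test (-0.47, SE 0.19, adjusted p = 0.188). Relative to the mean of the 48 h arrays with IL-21, the log2 ratio of Ezh1 to Ezh2 within an array was 2.36 at 72 h and between -0.10 and 0.50 on the 48 h arrays. That ratio restates the differences of the 2 genes, with Ezh1 a gene called higher, and was not tested.

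Eed, the PRC2 subunit that reads the methyl mark, had 245.0 and 250.6 at the earlier time with IL-21 and 137.2 at the later (log2 difference -0.85, SE 0.18, adjusted p = 0.0347). All 4 arrays at 48 h lay within a narrow band and the 72 h array well below it. Suz12, the scaffold of PRC2, had 265.6 and 226.5 against 144.2 on its brightest set (-0.77, SE 0.21, adjusted p = 0.0683), below all 48 h arrays but not past the threshold. Its other sets gave -0.18 (SE 0.23) and 0.28 (SE 0.51). Bmi1 of PRC1 had 225.1 and 226.7 against 100.5 (-1.17, SE 0.18, adjusted p = 0.0187), the clearest fall among them. Ring1, its partner ligase, had 18.41 and 16.38 against 20.76 (0.26, SE 0.42), all dim. Of the PRC1 chromodomain proteins, Cbx2 had 28.78 and 30.14 against 44.67 (0.60, SE 0.29), and Cbx6 differed by -0.27 on its brighter set and by 0.74 on the other. Rbbp4 (-0.12, SE 0.18) and Rbbp7 (-0.36, SE 0.14) lay below all 48 h arrays and did not pass. Cbx7, below the filter, had signals between 2.313 and 4.884.

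**Figure D3:**
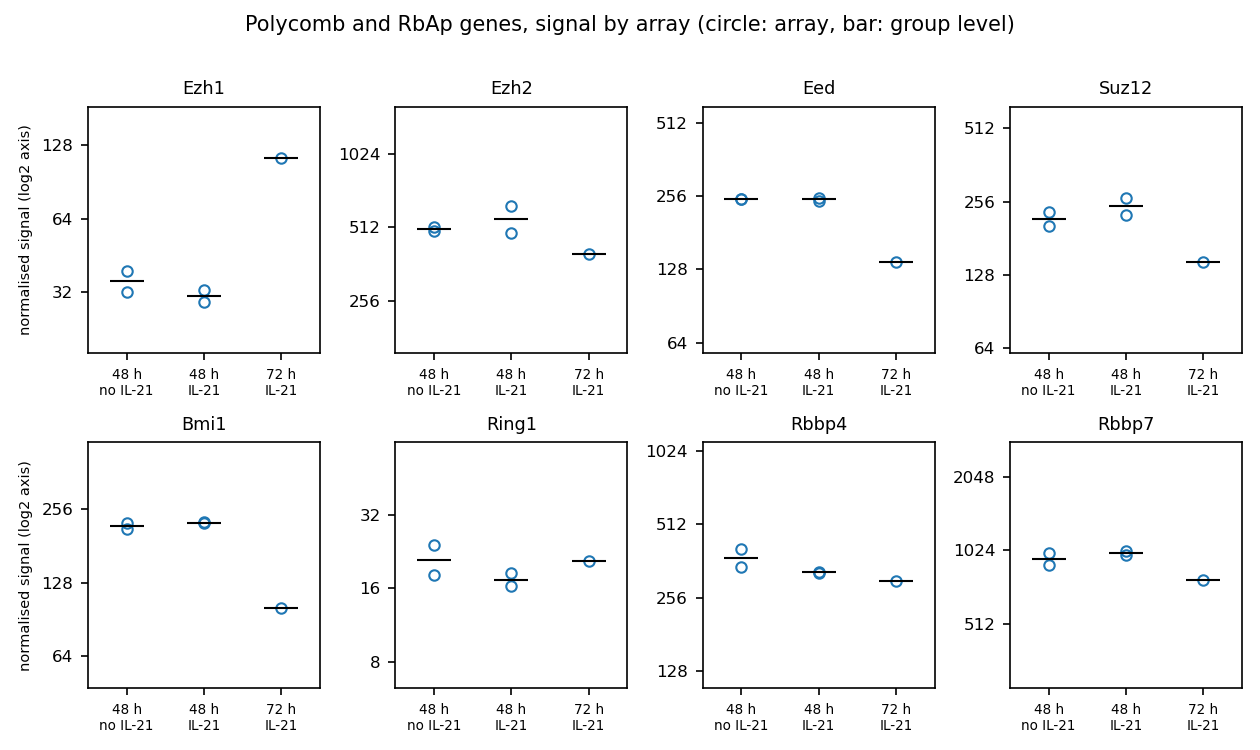
Normalised signal (log2 axis, the range differs by panel) of Polycomb and RbAp genes on each array, with circles for arrays and bars for group levels. Ezh1 stands at 113.7 at 72 h above all 48 h arrays, while Eed at 137.2, Suz12 at 144.2 and Bmi1 at 100.5 stand below theirs.

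The promoters of these 5 Polycomb genes are shown because 2 of them fell, 1 rose and 2 did not pass at 72 h. The sequences are the 250 bases before the start site, from RefSeq on GRCm38.p6, read 5′ to 3′ along the gene: Ezh1 at chr11:101226464-101226713 (minus strand), Ezh2 at chr6:47595031-47595280 (minus), Eed at chr7:89980977-89981226 (minus), Suz12 at chr11:79992856-79993105 (plus) and Bmi1 at chr2:18676768-18677017 (plus). Capitals mark matches on either strand to the E2F words TTTCGCGC, TTTGGCGC, TTTCCCGC and TTTGCCGC, the E-box CACGTG bound by MYC among others, the CCAAT box and the GC box GGGCGG, where GC boxes may overlap each other.
Ezh1: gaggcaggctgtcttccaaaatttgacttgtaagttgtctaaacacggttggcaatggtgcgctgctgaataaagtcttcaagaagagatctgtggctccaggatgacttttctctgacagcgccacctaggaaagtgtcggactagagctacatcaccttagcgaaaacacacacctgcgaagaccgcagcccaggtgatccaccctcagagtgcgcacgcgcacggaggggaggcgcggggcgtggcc
Ezh2: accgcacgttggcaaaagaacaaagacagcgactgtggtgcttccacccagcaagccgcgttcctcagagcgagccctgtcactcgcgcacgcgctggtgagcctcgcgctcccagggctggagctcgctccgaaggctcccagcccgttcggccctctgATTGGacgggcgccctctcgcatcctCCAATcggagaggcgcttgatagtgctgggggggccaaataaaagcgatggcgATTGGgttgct
Eed: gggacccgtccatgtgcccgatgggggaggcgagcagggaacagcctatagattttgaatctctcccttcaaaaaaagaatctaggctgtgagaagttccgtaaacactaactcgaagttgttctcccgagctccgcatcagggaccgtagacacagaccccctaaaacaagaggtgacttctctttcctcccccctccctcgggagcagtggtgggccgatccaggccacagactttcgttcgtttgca
Suz12: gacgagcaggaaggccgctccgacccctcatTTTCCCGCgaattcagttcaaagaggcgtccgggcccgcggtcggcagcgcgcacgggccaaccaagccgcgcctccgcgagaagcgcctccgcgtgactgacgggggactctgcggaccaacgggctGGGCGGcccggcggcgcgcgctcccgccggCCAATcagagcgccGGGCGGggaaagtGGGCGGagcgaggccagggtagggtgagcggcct
Bmi1: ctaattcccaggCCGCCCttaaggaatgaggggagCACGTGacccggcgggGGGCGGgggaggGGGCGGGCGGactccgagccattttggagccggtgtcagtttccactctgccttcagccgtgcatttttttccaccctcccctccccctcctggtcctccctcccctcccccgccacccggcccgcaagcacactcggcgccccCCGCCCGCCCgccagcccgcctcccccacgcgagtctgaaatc

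Ezh1 and Eed, which moved in opposite directions, held none of these words in the window. Ezh2 held 3 CCAAT boxes. Suz12 held 1 E2F word, 1 CCAAT box and 3 GC boxes, and Bmi1 1 E-box and 6 GC boxes. Of 35 measured members with a window, 3 held an E2F word (Kmt5c, Smarcd1 and Suz12), beside 1.91% of 27025 genes, and 5 an E-box, beside 6.05%. A CCAAT box was held by 13, beside 34.5%, and a GC box by 27, beside 32.9%. The 27025 genes were all those with a window, not limited to the array or to the signal filter. They are thus a set unlike the 35 members. Among the called members with a window, an E-box was found in that of Bmi1, a CCAAT box in those of Hdac5 and Kdm3a, and a GC box in those of Bmi1, Hdac5 and Kdm3a. These matches describe the letters in the window only.

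Of the 6 histone deacetylases 1 fell, 1 rose and 4 did not pass at 72 h. Hdac3, the catalytic subunit of the NCoR corepressor complex, had 92.97 and 133.8 without IL-21, 105.2 and 99.19 with it, and 36.13 at 72 h. That array lay below all others, and the log2 difference was -1.50 (SE 0.29, adjusted p = 0.0287). Hdac2, of the NuRD and Sin3 complexes, had 229.5, 340.7, 226.7 and 353.8 at 48 h and 116.9 at 72 h (-1.28, SE 0.35, adjusted p = 0.0718). Its 48 h arrays split by replicate number, high in the second of both groups, and the 72 h array lay below all 4. Hdac1, the close relative of Hdac2, had 296.7, 284.9, 277.1 and 299.3 at 48 h and 289.6 at 72 h, a log2 difference of 0.01 (SE 0.17), which reads -0.15 relative to all probe sets in the unscaled values. There the gene was called lower (adjusted p = 0.0498), the test being on differences that keep the shift of all probe sets. So of the 3 class I enzymes 1 fell, 1 was low without passing and 1 stayed within the range of the 48 h arrays.

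Of the class II enzymes, several of which shuttle between nucleus and cytoplasm, all 3 were above every 48 h array and 1 passed. Over all probe sets, 30.4% were above every 48 h array. Hdac5 had 122.6 and 131.2 without IL-21, 100.6 and 127.0 with it, and 301.1 at 72 h (log2 difference 1.41, SE 0.23, adjusted p = 0.0202). Hdac7, a corepressor best known from developing T cells, had 800.3 and 856.0 against 1076 (0.38, SE 0.13, adjusted p = 0.133). Hdac6, a cytoplasmic tubulin deacetylase, had 125.8 and 134.9 against 158.2 (0.28, SE 0.20). The log2 ratio of Hdac5 to Hdac3 within an array, relative to the mean of the 48 h arrays with IL-21, was 2.91 at 72 h and between -0.21 and 0.25 at 48 h. It joins the deacetylase called higher with the one called lower, so it restates their differences, and it was not tested. In arrays centred on their medians the Hdac5 call was lost (adjusted p = 0.0688). Its difference there was 1.26 above the median of all probe sets. The test was on the difference that keeps the shift of that median, -0.17.

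**Figure D4:**
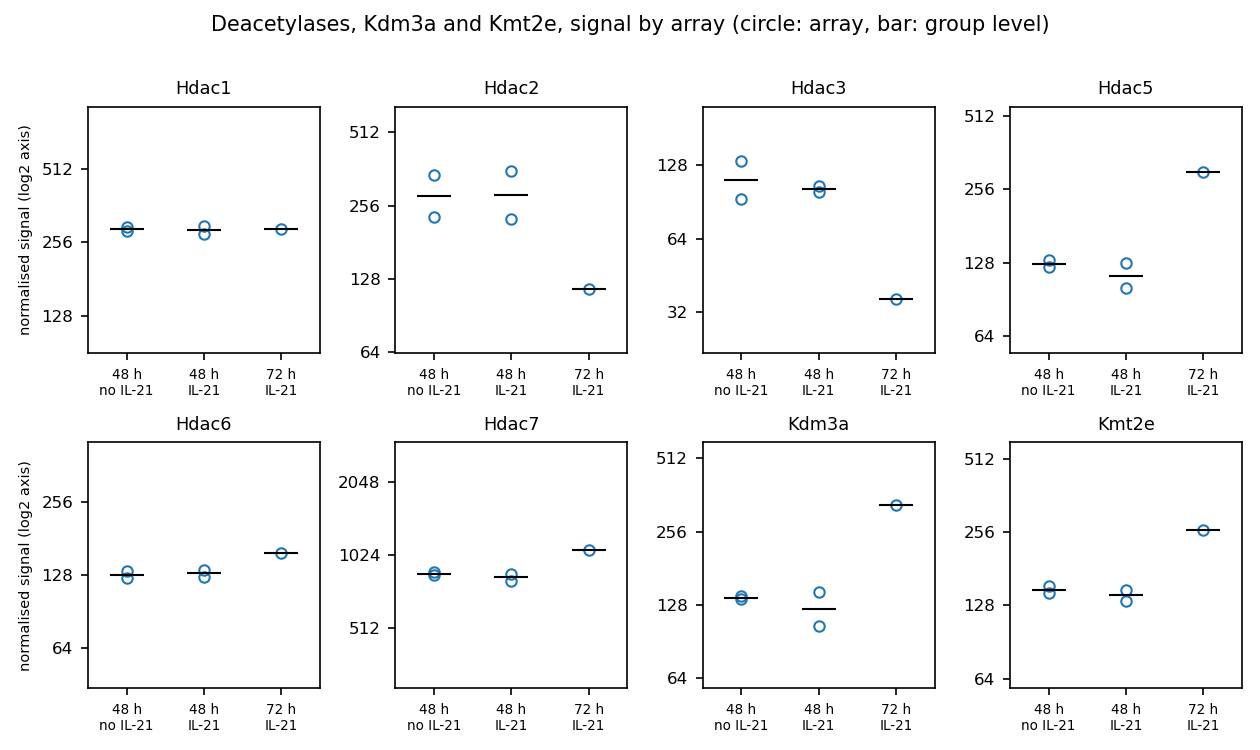
Normalised signal (log2 axis, the range differs by panel) of the 6 measured deacetylases, Kdm3a and Kmt2e on each array, with circles for arrays and bars for group levels. Hdac3 falls to 36.13 and Hdac5 rises to 301.1 at 72 h, and Hdac1 at 289.6 stays within its 48 h range.

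Among the demethylases 4 of 5 had a positive difference at 72 h, beside 49.3% of all probe sets, and 1 passed. Kdm3a, an eraser of a repressive histone H3 mark known to respond to low oxygen, had 138.8 and 135.0 without IL-21, 105.3 and 144.7 with it, and 329.0 at 72 h (log2 difference 1.41, SE 0.25, adjusted p = 0.0242). The 72 h array was above every other. Centred on array medians it did not pass (adjusted p = 0.0828), in a test that keeps the shift of all probe sets. Kdm1a had 45.69 and 36.74 against 71.23 (0.80, SE 0.27, adjusted p = 0.124), also above all 48 h arrays. Kdm5b had 21.44 and 33.65 against 46.95 (0.81, SE 0.36), which lies near its 48 h level without IL-21. Kdm3b differed by 0.19 (SE 0.25) and the X-linked Kdm6a, which removes the Polycomb mark, by -0.01 (SE 0.20). Kdm5a and the Y-linked Kdm5d, below the filter, had signals of at most 17.74 and 3.330.

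Kmt2e, also called MLL5, had 152.8 and 143.3 without IL-21, 148.4 and 133.5 with it, and 261.1 at 72 h (log2 difference 0.89, SE 0.20, adjusted p = 0.0420). It lay above all 48 h arrays, but it passed in 6 of 16 alternatives, the fewest of the 7. Centred on array medians, with the shift of all probe sets kept in the test, its adjusted p was 0.249. Kmt2a differed by 0.08 (SE 0.30) and by 0.06 (SE 0.31) on its other set. Kmt5c, which methylates histone H4 in heterochromatin, had 119.7 and 118.1 against 195.5 (0.72, SE 0.20, adjusted p = 0.0735), and Kmt5a, which acts on H4 before it, 219.0 and 267.0 against 191.7 (-0.34, SE 0.28). Dnmt1 had 520.8 and 631.0 against 537.6 (-0.09, SE 0.18) and Dnmt3a 34.06 and 43.04 against 35.22 (-0.12, SE 0.40), both within the range at 48 h.

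The ATP-dependent remodellers gave no call at 72 h. Smarca4 had 409.1 and 455.7 against 305.6 (-0.50, SE 0.17, adjusted p = 0.116), below all 48 h arrays. Smarcc1 had 279.4 and 280.4 against 180.1 (-0.64, SE 0.19, adjusted p = 0.0893), and Smarcb1 differed by 0.17 (SE 0.26). Smarca5, the ISWI ATPase SNF2H, differed by -0.46 (SE 0.22) on one probe set and -0.82 (SE 0.25) on the other, both below all 48 h arrays. Chd4 had 1573 and 1526 against 1218 (-0.35, SE 0.12, adjusted p = 0.137) and Chd1 166.6 and 177.9 against 128.3 (-0.42, SE 0.27). Chd7 had 79.05, 174.7, 71.99 and 140.0 at 48 h, high in the second replicate of both groups, and 175.7 at 72 h (0.81, SE 0.56, adjusted p = 0.422). Smarca2, Smarcd1, Smarcd2 and Smarce1 differed by 0.02 to 0.45, Chd8 by 0.05 and Chd1l by -0.52 (SE 0.86). Smarcad1, an SNF2-type ATPase, differed by -0.24 on a probe set and -0.80 on the other. The names of the probe sets for Chd4, Smarcd2 and Cbx6 carry a suffix for probes that can match related transcripts.

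Of the HP1 genes, Cbx1 had dim signals of 14.89 and 23.78 at the earlier time with IL-21 and 24.75 at the later (0.40, SE 0.45). Cbx5 had 133.2 and 179.4 against 124.2 on its brighter set (-0.32, SE 0.25). The dimmer Cbx5 set had 113 and 129 against 43.2 (-1.48, SE 0.24, adjusted p = 0.0191), a fall past the threshold. Both Cbx5 sets were thus lower at 72 h than at 48 h with IL-21, by unequal amounts. On the brighter set, though, the 72 h array lay within the range of all 48 h arrays. The dimmer set read 54.7 and 55.0 at 48 h without IL-21, closer to its 72 h value than the arrays with IL-21. At 72 h, 7 of the 10 other probe sets had the sign of the brighter set and 3 the opposite, those of Cbx6, Smarcd2 and Suz12.

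Chromatin genes outside the name rule, in 6 lists chosen with earlier results known, had 0 calls at 48 h among 91 measured and 15 at 72 h, 14 lower and 1 higher, with a median of -0.17. Beside these, 7.12% of all probe sets were called lower at 72 h and 4.04% higher, and 49.3% had a positive difference. Histone chaperones and nucleosome proteins held 7 of the 14, with 15 of 20 lower and a median of -0.48. Hmgn1, a nucleosome-binding protein, fell by 1.19 on the log2 scale (adjusted p = 0.00928) and the histone-binding nucleolar protein Ncl by 1.10 (adjusted p = 0.0105). Ruvbl1 and Ruvbl2, the paired ATPases of INO80 and TIP60, fell by 1.81 and 0.99, and were the 2 of 19 other remodeller subunits called. Of 11 acetyltransferases and readers, Morf4l2 (-1.29) and Hat1 (-1.48) fell. Of 11 other methyltransferases, 3 fell, the arginine methyltransferases Prmt1 (-1.42) and Carm1 (-1.36) and, by the most, Smyd5 (-1.92, adjusted p = 0.0157), which was named after its values were seen. Ehmt2, the G9a enzyme that writes the mark KDM3A erases, rose (1.12, adjusted p = 0.0174). Of 15 partners of deacetylases 0 were called, with 12 higher and a median of 0.31, and of 15 Polycomb and DNA methylation partners 0, with a median of 0.12.

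Of 12 measured proliferation genes, 9 were lower at 72 h and 3 were called, all lower, with a median of -0.54. For this and the marker lists below, the shares over all probe sets were 7.12% called lower and 4.04% called higher. A positive difference was seen in 49.3%. The called genes were subunits of the replicative helicase: Mcm2 (-1.12, adjusted p = 0.0149), Mcm5 (-0.81, adjusted p = 0.0363) and Mcm3 (-0.72, adjusted p = 0.0390). The other 3 had positive differences that did not pass. They were the cycling cell antigen Mki67 (0.34, adjusted p = 0.270), the topoisomerase Top2a (0.51, adjusted p = 0.0998) and the cyclin Ccna2 (0.22, adjusted p = 0.439), of which Mki67 and Top2a lay above all 48 h arrays. The summed signal of the list was between 7812 and 8132 with IL-21 at the earlier time and 5780 at the later. Of the 8 CD8 T cell markers 5 were higher and 3 were called, all higher, led by Cd3g (1.78, adjusted p = 0.00928), while Cd8a had 690.4 and 753.4 against 505.9. H2-Ab1, a myeloid and dendritic cell marker, was called higher at 72 h (1.24, adjusted p = 0.0256), 1 of 6 measured on that list. Of these 6, 2 were higher and 4 lower. The other higher one, Itgax, had 22.06 and 12.67 with IL-21 at the earlier time and 41.27 at the later (1.30, adjusted p = 0.164). H2-Eb1, another class II gene, had 41.5 and 14.0 against 14.1. Itgam, below the filter, had 4.294 and 3.116 against 14.75. Cd4, the 1 measured CD4 T cell marker, differed by 1.42 (SE 0.52, adjusted p = 0.145). Itgax, Itgam and Cd4 lay above all 48 h arrays. The part of any of these lists in the chromatin genes' changes was not tested.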

How the data were processed

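The authors deposited 1 table of linear intensities by probe set, and MAS5 is the summary method that the submitters' processing notes name. Its version and scaling target were not given there. The intensity columns had different trimmed means, so an overall difference between arrays remained in the deposited values.

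Names came from a platform table, updated by Entrez identifier to GRCm38.p6 symbols (10817 of 10833 probe sets with a single name matched, and 396 with several names went unnamed). An offset of 1.53, the 10th percentile, was added before log2, which understates differences of dim probe sets. Arrays were then quantile normalised. Probe sets with a mean log2 value above the 40th percentile were kept (7453 of 12422). Differences were fitted with limma 3.58.1 in R 4.3.3 to all 5 arrays with a mean for each of 3 groups (2 residual degrees of freedom), a variance trend, two-sided tests and Benjamini-Hochberg adjustment at 0.05. The procedure was tested on simulated data.

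The members and lists were chosen with earlier results of these data known. Named were all members called at 72 h, the 6 per direction with the smallest p at 48 h, and a fixed set of core subunits. Other members are named to complete their family, with their values seen. Of other chromatin lists the 2 called genes per direction with the smallest p were named. Promoter windows were matched by symbol for 37 of 46 members, using the first window listed. Alternatives covered scaling, offset, filter, variance trend, gene means, replicate numbers, single 48 h arrays left out and all 48 h arrays as the baseline.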

Additional observations from a re-analysis of the deposited data

How the results depend on the processing

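Over 16 alternatives the 7 members called at 72 h kept their sign in every one, and Bmi1, Ezh1 and Hdac3 passed in 13. The limits are the lone 72 h array, 2 arrays in the other groups, dim probe sets and scaling. In unscaled arrays, which shift the median of all probe sets by 0.57 at 48 h and -0.58 at 72 h, 5 members passed at 48 h, all higher, and 17 lower and 1 higher at 72 h, in tests that keep that shift. Of all 7453 probe sets 680 were then called at 48 h, and 2025 lower and 100 higher at 72 h. Hdac1 then read -0.15 relative to the median. Of all calls at 72 h, 4.71% were then higher, 18.0% with arrays centred on medians, 49.7% on hybridisation controls, and 36.2% as reported. Centred on medians, 1 member passed higher. Tests in centred arrays also keep the shift of all probe sets at 72 h, -0.17 for medians and 0.12 for hybridisation controls. Without the variance trend 0 members passed lower and 0 higher, and no probe set did. Members at least 1.5-fold apart at 48 h numbered 1 with an offset of 16 and 1 with the filter at the 60th percentile, which leaves 34 members.

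With 1 array left out, members called lower at 72 h ranged from 0 to 2 and higher from 0 to 2, those at least 1.5-fold apart from 3 to 5, and the median at 48 h from -0.07 to 0.08; such fits have fewer arrays, and a group left with 1 is assumed to vary like the others. The replicate numbers pair nothing in the labels, though deviations with the same number correlated (r = 0.361). With the replicate block 6 members passed lower and 7 higher at 72 h (those reported plus Hdac2, Smarcc1 and Suz12 lower and Chd7, Hdac7 and Kmt5c higher), 0 at 48 h, and 860 probe sets higher and 1000 lower in place of 301 and 531. Of 883 values of single members under alternatives, 795 kept their call and, where not called, stayed within 1 SE, 37 lost and 18 gained a call, 32 moved and 1 reversed.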
